A study of Mus musculus with 8 samples.

Results

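The genes described here are 37 genes of the lysosome, of the proton pump that acidifies it and of autophagy, chosen by name. All 37 are listed in each table of exon reads, among 22050 genes with an mRNA model, and all 37 passed the filter on low counts that left 12235 genes for testing. They were measured in haematopoietic stem cells (HSCs), the rare cells of the bone marrow that give rise to every blood lineage. The cells came from postnatal day 5 (P5) pups and from mice of 4 weeks, all of the inbred strain C57BL/6, with no allele or treatment named in the labels. They were sorted as CD150+ CD48- EPCR+ Lineage- cells, 100 for each library, with 4 libraries at P5 and 4 at 4 weeks. The labels do not say whether libraries of 1 age came from separate animals or whether marrow was pooled, so the spread that the p-values are set against may be partly technical.

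The lysosome is the acidic compartment in which a cell digests proteins, lipids, sugars and worn-out organelles. Its acid comes from the vacuolar ATPase (V-ATPase), whose membrane sector V0 carries protons and whose cytosolic sector V1 burns ATP. Autophagy brings cytoplasm to the lysosome: a kinase complex and a lipid kinase start a membrane sac, conjugation enzymes attach ATG8 proteins to it, and receptors fill it with cargo. Transcription factors of the MiT-TFE family switch many of these genes on through a promoter element called CLEAR, with the core CACGTG. In HSCs, lysosomes and autophagy are known for their part in clearing mitochondria and in keeping stem cells dormant.

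The libraries held between 5775130 and 7470777 exon reads, and stem cell markers were abundant in all of them, with a summed level of 4965 to 5516 CPM (exon reads normalised to library size) at P5 and 4480 to 5095 CPM at 4 weeks over 11 genes. 3 features of the libraries touch the results. First, P5 replicate 2 held RNA of macrophages, cells very rich in lysosomes: Csf1r, the receptor for macrophage growth factor, stood at 158 CPM there and at 3.45 to 7.92 CPM in the other libraries, and 10 of 12 detected macrophage and monocyte markers were highest in it. Their sum was 168.6 to 476 CPM at P5 and 164 to 200.3 CPM at 4 weeks, and Marco was at 0. Second, 6 libraries held 1532 to 2293 reads of Y-linked genes, whereas P5 replicates 1 and 3 held at most 2, so sex was not balanced between the ages. Lastly, P5 replicate 1 had the lowest intron share of gene reads, 60.1% against 66.8% to 68.7% elsewhere. Among other marker lists, the megakaryocyte sum was lower at P5 (118 to 154 CPM over 8 genes, none at 0) than at 4 weeks (202 to 281 CPM), whereas the osteoclast sum (16.4 to 26.4 CPM at P5, 3.60 to 10.3 CPM at 4 weeks, 7 genes, Ocstamp at 0) and the B cell sum (34.1 to 51.7 CPM at P5, 20.9 to 26.1 CPM at 4 weeks, 8 genes, Ms4a1 and Pax5 at 0) were higher. The sums of 4 other lists overlapped between the ages: neutrophil markers (27.2 to 46.3 CPM at P5, 28.3 to 36.7 CPM at 4 weeks, Mmp8 at 0), erythroid markers (23.4 to 32.8 CPM at P5, 16.0 to 79.6 CPM at 4 weeks, Alas2 at 0), T and NK cell markers (19.7 to 31.7 CPM at P5, 16.0 to 26.5 CPM at 4 weeks, with Cd3e, Cd3g and Ncr1 at 0) and endothelial and stromal markers (177 to 254 CPM at P5, 151 to 219.7 CPM at 4 weeks, none at 0). The most abundant gene of each list was Hlf for stem cells, Lyz2, Itgb3, Dcstamp, Cd79b, Prtn3, Rhag, Cd4 and Pecam1 in the order given here. Their part in the results below was not tested.

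Most of the 37 genes had like levels at both ages, and those past the threshold were all lower at P5. In what follows, fell and rose mean lower and higher at P5, the younger age, than at 4 weeks, not a change with time. Log2 fold changes are P5 over 4 weeks. 4 genes fell: Atp6v0a1, a V0 subunit, Mitf, a MiT-TFE factor, Lamp2, a lysosomal membrane protein, and Hexa, a subunit of a ganglioside-degrading enzyme. None rose (quasi-likelihood test of edgeR, p adjusted by Benjamini-Hochberg, threshold 0.05). Over all genes tested, 7.99% were higher and 8.55% were lower at P5, 16.5% in either direction, so the share of the 37 that fell, 10.8%, was near the background. The median log2 fold change of the 37 was 0.01 (all genes: -0.0042), and the median of its absolute value was 0.13 (all genes: 0.20). At an unadjusted p under 0.05, 3 of the 37 were higher and 7 lower (8.11% and 18.9%), against 14.5% higher and 15.4% lower of all genes. The ages did not overlap for 5 of the 37, against 21.2% of all genes. The 95% interval of the log2 fold change lay within 0.5 of 0, a 1.41-fold change either way, for 28 of the 33 genes that did not pass. Over all genes tested, this held for 5516 of the 10212 that did not pass. Fold change size and interval width depend on read depth, for which all genes were not matched to the 37. In bulk RNA of sorted cells, fewer cells that express a gene and less RNA of it per cell cannot be told apart.

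**Figure D1:**
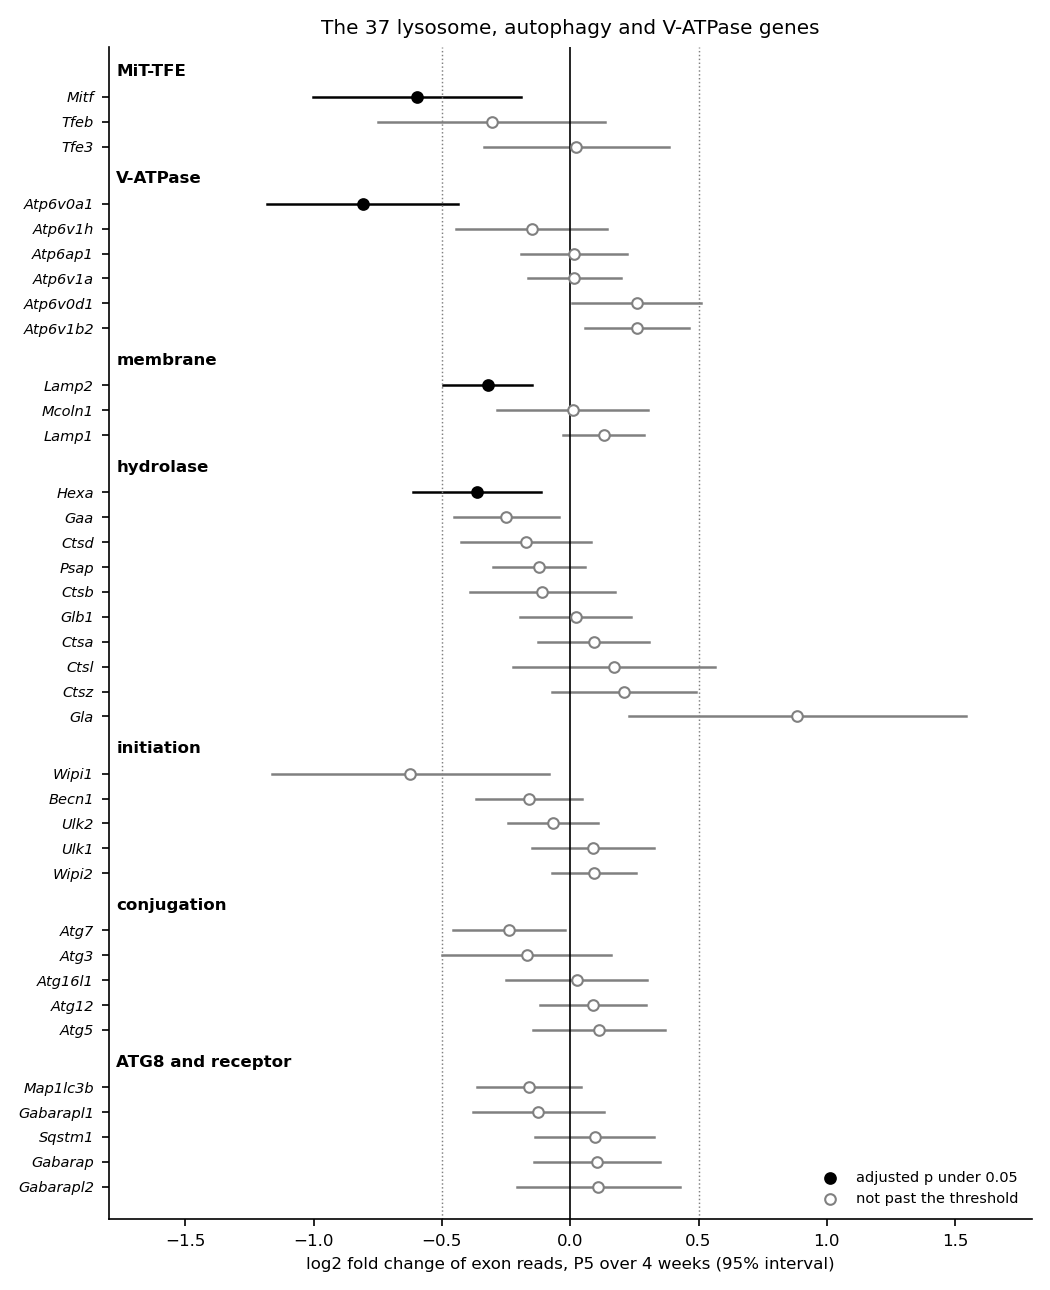
Log2 fold change of exon reads (horizontal axis, P5 over 4 weeks) for the 37 genes, grouped by role, as points with 95% intervals that are not adjusted for multiple testing. Filled points are the 4 genes with an adjusted p under 0.05, all left of 0, and dotted lines mark a log2 fold change of 0.5 either way.

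The calls changed when sex-linked reads were taken into account. With Y-linked reads (present or not) as a term in the fit, none of the 37 genes passed in either direction, while 5.13% of all genes were higher and 4.97% lower at P5. The adjusted p was then 0.0564 for Atp6v0a1, 0.113 for Lamp2, 0.176 for Hexa and 0.203 for Mitf, with log2 fold changes of -0.72, -0.28, -0.35 and -0.53. None passed either when only the 6 libraries with Y-linked reads were compared. No 4-week library lacked such reads, so in both fits P5 was represented by replicates 2 and 4 alone. Replicate 2 is the library with macrophage RNA. Whether calls were lost through sex or through the smaller number of P5 libraries was not tested. Without P5 replicate 2, 6 of the 37 genes were lower and none higher, against 8.65% lower and 6.97% higher of all genes. Replicate 4 was then the only P5 library with Y-linked reads. Atp6v0a1 and Lamp2 passed with any 1 library left out. Hexa passed only without 4-week replicate 3 and Mitf only without P5 replicate 3 or 4-week replicate 2.

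MiT-TFE transcription factors had low levels. Per kb of exon, the scale on which levels of different genes can be set side by side, Tfe3 averaged 6.21 CPM, Mitf 3.58 CPM and Tfeb 3.57 CPM over the 8 libraries, ranks 33, 35 and 36 of the 37. Mitf, best known as the factor of melanocytes and mast cells, had 12.1, 17.4, 23.3 and 21.2 CPM in P5 replicates 1 to 4, against 30.5, 23.6, 27.4 and 30.1 CPM at 4 weeks. The ages did not overlap, though the highest P5 library came close to the lowest 4-week one, and Mitf was 1.51-fold lower at P5 (log2 fold change -0.60, SE 0.19, adjusted p = 0.0447). The mast cell and basophil markers summed to 0.141 to 0.808 CPM at P5 and 0.831 to 1.42 CPM at 4 weeks, with 6 of 7 genes at 0 in every library. Tfe3, a factor held in the cytosol by nutrient signals, had 23.9, 28.1, 16.5 and 24.7 CPM at P5, against 24.5, 24.3, 23.4 and 19.7 CPM at 4 weeks. Its ages overlapped (log2 fold change 0.02, 95% interval -0.34 to 0.38), and 39.3% of its reads mapped to 1 place only. Tfeb, the factor first tied to lysosome biogenesis, averaged 11.0 ± 2.37 CPM at P5 and 13.6 ± 1.91 CPM at 4 weeks (± SD, 4 libraries each), and its log2 fold change was -0.31 (SE 0.20), which did not pass (adjusted p = 0.348). Tfec, the family's remaining factor and not among the 37, had the highest level per kb of the 4, 39.2% ± 4.46 of their sum at P5 and 42.8% ± 3.17 at 4 weeks, and fell (log2 fold change -0.46, SE 0.12, adjusted p = 0.0152).

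The promoters of these genes were read for the sequence that MiT-TFE factors recognise. RefSeq promoters of GRCm38.p6, from 250 bases before to 50 after a start site, were found for 31 of the 37 genes, 38 promoters in all. None was matched for Atp6v1h, Atp6v1b2, Becn1, Ctsb, Atg12 and Atg16l1. The 6 bases CACGTG, the same on both strands, were in a promoter of 13 of the 31 genes (41.9%), and in 7.15% of all 32851 promoters (8.09% of their genes). The 8 bases TCACGTGA, which contain those 6 and also read the same on both strands, were in 7 genes (22.6%), against 0.974% of all promoters (1.12% of their genes). These were Ctsa, Ctsd, Mcoln1, Gla, Atp6v0d1, Atp6v1a and Atg3. Neither string was in a promoter of Lamp2, Hexa, Mitf or Atp6v0a1, the 4 genes that fell. Many genes that did not pass lacked both strings too, among them Psap, Ctsz, Ulk1, Wipi2, Sqstm1 and Map1lc3b. The single entry for Atp6v0a1 begins at a start site 976 bases inside the gene. A match is a string of letters, not a bound site, and its absence from these windows says nothing about binding elsewhere. To show the strings in place, 48 bases around TCACGTGA (in capitals) follow for an enzyme, a channel, an autophagy gene and the gene with the largest positive fold change, each upstream of its start site and read 5′ to 3′ on the gene's strand.
Ctsd, minus strand, chr7:142387899-142387946: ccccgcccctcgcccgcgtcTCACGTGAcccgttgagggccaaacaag
Mcoln1, plus strand, chr8:3500453-3500500: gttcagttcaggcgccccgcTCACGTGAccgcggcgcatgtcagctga
Atg3, plus strand, chr16:45158737-45158784: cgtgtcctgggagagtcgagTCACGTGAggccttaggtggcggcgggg
Gla, minus strand, chrX:134601206-134601253: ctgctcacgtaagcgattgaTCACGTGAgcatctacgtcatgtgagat
Windows without either string are shown too, as the 100 bases before the start sites of Lamp2 and Hexa, with no capitals.
Lamp2, minus strand, chrX:38456461-38456560: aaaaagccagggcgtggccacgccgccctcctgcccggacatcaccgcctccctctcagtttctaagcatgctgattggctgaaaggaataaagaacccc
Hexa, plus strand, chr9:59539440-59539539: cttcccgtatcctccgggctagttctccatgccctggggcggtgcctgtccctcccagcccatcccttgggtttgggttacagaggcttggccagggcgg

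Of the 6 V-ATPase genes, Atp6v0a1 fell and the other 5 did not pass. Atp6v0a1 encodes one of the 4 versions of subunit a, which forms the proton path and steers the pump to a membrane. It lies on chromosome 11 (mm10, bases 101009422 to 101063719). It had 19.5, 30.9, 22.9 and 17.2 CPM in P5 replicates 1 to 4, against 41.2, 39.1, 44.3 and 33.9 CPM at 4 weeks. No P5 library reached the lowest 4-week library, and the gene was 1.75-fold lower at P5 (log2 fold change -0.81, SE 0.17, adjusted p = 0.00576). Its highest P5 value was in replicate 2, the library with macrophage RNA, and without it the gene was 1.99-fold lower (adjusted p = 5.4e-04). Atp6v0d1, which joins the proton ring to the stalk, had the highest level per kb of the 6, 54.6 CPM. It stood at 107, 109, 97.1 and 72.5 CPM at P5, against 81.5, 82.2, 76.4 and 81.6 CPM at 4 weeks. 3 P5 libraries were above all 4-week libraries and replicate 4 below them (log2 fold change 0.26, SE 0.12, adjusted p = 0.158). Of all alternatives tried, the gene passed only without P5 replicate 4, as higher (log2 fold change 0.37, adjusted p = 0.0167). That fit leaves out the P5 library that went the other way. With Y-linked reads as a covariate its log2 fold change was 0.17 (adjusted p = 0.537). Atp6v1b2, a subunit of the ATP-burning head, had 165, 159.9, 133 and 134 CPM at P5, against 127, 121, 134 and 112 CPM at 4 weeks (log2 fold change 0.26, SE 0.09, adjusted p = 0.0782). 4-week replicate 3 reached the range of P5. Atp6v1a, the catalytic subunit, averaged 125 ± 9.12 CPM at P5 and 123 ± 8.58 CPM at 4 weeks (± SD, 4 libraries each), and Atp6ap1, an accessory protein, 80.2 ± 6.28 CPM at P5 and 79.4 ± 6.81 CPM at 4 weeks (± SD, 4 libraries each). Their log2 fold changes were 0.02 (95% interval -0.16 to 0.20) and 0.01 (-0.19 to 0.22). Atp6v1h, a regulatory subunit, had a log2 fold change of -0.15 (95% interval -0.44 to 0.14).

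The 4 genes for subunit a were uneven. Per kb of exon, Tcirg1, the version of osteoclasts and lymphocytes, took 59.3% ± 3.54 of their sum at P5 and 60.5% ± 1.24 at 4 weeks, and Atp6v0a2 31.7% ± 4.02 at P5 and 27.0% ± 2.60 at 4 weeks (± SD, 4 libraries each). Atp6v0a1 took 9.00% ± 2.08 at P5 and 12.4% ± 1.51 at 4 weeks, and Atp6v0a4, the version of kidney, had 2 reads in all. Shares do not show levels. Tcirg1 had 36.7 ± 6.84 CPM per kb at P5 and 47.1 ± 1.33 CPM per kb at 4 weeks. It did not pass, though no P5 library reached its lowest 4-week library, whereas the ages overlapped for Atp6v0a2. Among 23 further genes for the pump and its assembly, 16 were tested. Of these, Atp6v0c, the proton ring subunit, rose (126 ± 4.35 CPM at P5, 101 ± 9.69 CPM at 4 weeks, log2 fold change 0.31, SE 0.09, adjusted p = 0.0240), and Atp6v1c1, which holds head to stalk, fell (29.7 ± 2.98 CPM at P5, 39.5 ± 5.25 CPM at 4 weeks, log2 fold change -0.41, SE 0.13, adjusted p = 0.0482). These calls were 12.5% of the 16, against 16.5% of all genes, and the median log2 fold change of the 16 was 0.02 (all genes: -0.0042). Neither passed with Y-linked reads as a covariate (adjusted p = 0.132 and 0.239).

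**Figure D2:**
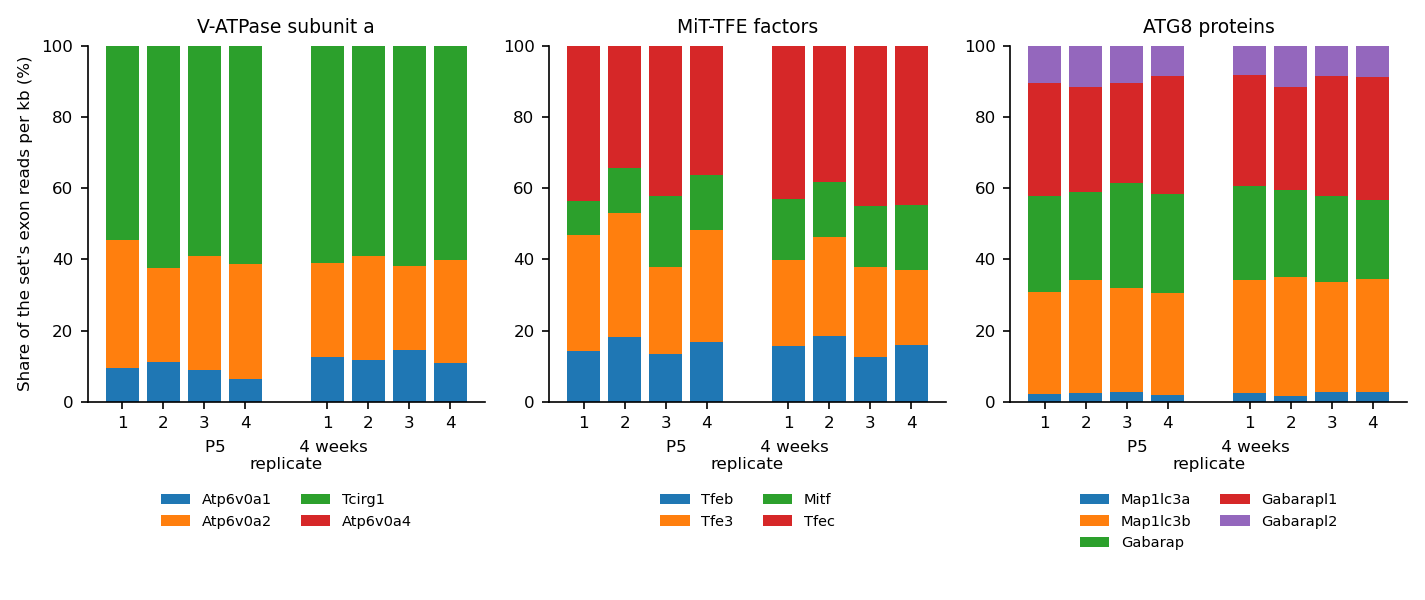
Share of each paralogue in the summed exon reads per kb of its set (vertical axis, percent), one bar per library, P5 replicates 1 to 4 left and 4-week replicates 1 to 4 right. Tcirg1 takes the largest part of the subunit a set in all 8 libraries, Tfec leads the MiT-TFE set on average at both ages, and Map1lc3b, Gabarapl1 and Gabarap share most of the ATG8 set.

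Of the 3 lysosomal membrane proteins, Lamp2 fell. It had 150.5, 186, 182 and 168 CPM in P5 replicates 1 to 4, against 221, 205, 222 and 211 CPM at 4 weeks. All P5 libraries were below all 4-week libraries, and Lamp2 was 1.25-fold lower at P5 (log2 fold change -0.32, SE 0.08, adjusted p = 0.0148). The gene lies on the X chromosome (mm10, bases 38399647 to 38456460). Lamp1, its relative that coats the inside of the lysosomal membrane, had 165, 160.1, 160.2 and 159 CPM at P5, against 143, 162, 141 and 142 CPM at 4 weeks. It did not pass (log2 fold change 0.13, SE 0.07, adjusted p = 0.257), and 4-week replicate 2 stood apart from the other 3. Mcoln1, the calcium channel of the lysosome, averaged 45.4 ± 7.73 CPM at P5 and 45.1 ± 4.45 CPM at 4 weeks (± SD, 4 libraries each, log2 fold change 0.01, 95% interval -0.28 to 0.30).

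The 9 hydrolases and Psap, their helper, include the most abundant RNA of the 37, and Hexa alone fell. Psap, the precursor of saposins that present lipids to enzymes, ranked first with 169.7 CPM per kb over the 8 libraries, and Ctsd, an aspartic protease, ranked second with 104 CPM per kb. Hexa had 35.2, 38.2, 36.2 and 34.4 CPM in P5 replicates 1 to 4, against 49.5, 51.7, 39.5 and 44.6 CPM at 4 weeks. The ages did not overlap, and Hexa was 1.29-fold lower at P5 (log2 fold change -0.36, SE 0.12, adjusted p = 0.0478). Its exons overlap those of Tmem202 on the opposite strand, and reads of the 2 genes cannot be told apart in unstranded libraries. The same limit holds for 11 of the 37 genes: Hexa, Lamp1, Ctsa, Ctsb, Ctsl, Ctsz, Atp6v1h, Becn1, Sqstm1, Map1lc3b and Gabarapl1. Exons of Ctsd, Ctsl and Glb1 overlap those of a gene on the same strand. Psap itself had 440.2, 502, 442 and 393 CPM at P5, against 478, 459.8, 522 and 472 CPM at 4 weeks, and the ages overlapped (log2 fold change -0.12, 95% interval -0.30 to 0.06).

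Ctsb, Ctsd and Gaa were higher in P5 replicate 2 than in the other P5 libraries. Ctsb, a cysteine protease, had 159, 251, 173 and 155 CPM at P5, against 193, 209.7, 203 and 189 CPM at 4 weeks. Ctsd had 167, 250.2, 183 and 167 CPM at P5, against 199.7, 226, 221 and 216 CPM at 4 weeks. Gaa, the enzyme that degrades glycogen, had 122, 150.5, 123 and 121 CPM at P5, against 159.9, 138, 168 and 147 CPM at 4 weeks. In all 3 genes the other P5 libraries were below every 4-week library. With all libraries none passed (log2 fold changes of -0.11, -0.17 and -0.25, adjusted p = 0.627, 0.362 and 0.0918). Without P5 replicate 2 all 3 passed as lower, with log2 fold changes of -0.29, -0.33 and -0.33 (adjusted p = 0.0253, 0.0148 and 0.0214). That fit keeps replicate 4 as the only P5 library with Y-linked reads. With such reads as a covariate and all libraries, none of the 3 passed. Their log2 fold changes were then 0.03, -0.05 and -0.18 (adjusted p = 0.942, 0.877 and 0.402). P5 replicate 2 was the highest of the 8 libraries for 5 of the 10 hydrolase genes (Ctsa, Ctsb, Ctsd, Ctsl and Gla, and not Gaa) and 12 of the 37 genes, against 16.3% of all genes tested. The part of macrophage RNA in these values was not tested.

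**Figure D3:**
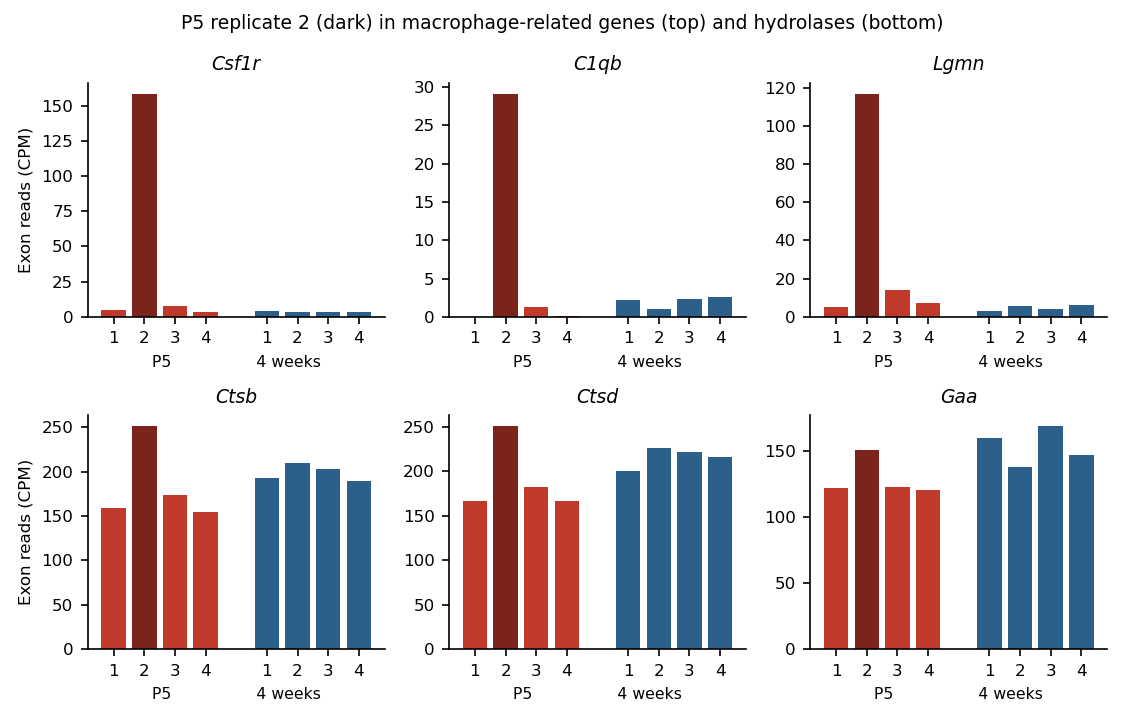
Exon reads (vertical axes, CPM) in each library, P5 replicates 1 to 4 left and 4-week replicates 1 to 4 right, for the macrophage genes Csf1r and C1qb and the macrophage-rich protease gene Lgmn (top) and for Ctsb, Ctsd and Gaa (bottom). The dark bar is P5 replicate 2, which reaches 158 CPM for Csf1r and 251 CPM for Ctsb, above all other libraries in both.

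Gla, which cleaves terminal galactose from lipids, had the largest positive fold change of the 37 and the lowest level per kb, 2.67 CPM. It had 6.82, 13.8, 12.8 and 8.74 CPM at P5, against 8.06, 4.48, 3.87 and 6.23 CPM at 4 weeks. The ages overlapped, each library held only 23 to 89 reads, and Gla did not pass (log2 fold change 0.88, SE 0.30, adjusted p = 0.0649). DESeq2 put it just past the threshold (adjusted p = 0.0479), as did edgeR's quasi-likelihood test without P5 replicate 1 (0.0337) or 4-week replicate 1 (0.0443). The other hydrolases did not pass. Glb1, a beta-galactosidase, averaged 78.0 ± 8.19 CPM at P5 and 76.8 ± 6.05 CPM at 4 weeks (± SD, 4 libraries each), and Ctsa, which shields it, 124 ± 17.1 CPM at P5 and 117 ± 7.55 CPM at 4 weeks (± SD, 4 libraries each). The proteases Ctsz and Ctsl had log2 fold changes of 0.21 (95% interval -0.07 to 0.49) and 0.17 (-0.22 to 0.57).

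Genes that start an autophagosome did not pass on exon reads. Ulk1, the kinase that receives signals of starvation, led this group with 34.1 CPM per kb. It had 187, 248, 199 and 174 CPM at P5, against 195, 163, 207 and 193 CPM at 4 weeks, with P5 replicate 2 above all others (log2 fold change 0.09, 95% interval -0.15 to 0.33). Its relative Ulk2 averaged 117 ± 8.45 CPM at P5 and 122 ± 6.70 CPM at 4 weeks, and Becn1, a part of the lipid kinase complex, 59.6 ± 4.42 CPM at P5 and 66.6 ± 3.67 CPM at 4 weeks (± SD, 4 libraries each), with adjusted p = 0.637 and 0.288. Wipi1 and Wipi2 encode lipid-binding proteins, of which that of Wipi2 recruits the conjugation machinery. Wipi2 was much the more abundant, with 31.5 CPM per kb against 4.84 for Wipi1. Wipi2 had 138, 139, 138 and 138 CPM at P5, against 137, 116, 131 and 134 CPM at 4 weeks. The ages of Wipi2 were separated by under 1 CPM, and it did not pass (log2 fold change 0.09, SE 0.08, adjusted p = 0.445). Wipi1 had 5.73, 9.79, 6.46 and 5.78 CPM at P5, against 9.16, 10.2, 9.42 and 13.9 CPM at 4 weeks (log2 fold change -0.62, SE 0.25, adjusted p = 0.113). P5 replicate 2 was the one P5 library within the range of 4 weeks, and without it Wipi1 was 1.78-fold lower and passed (adjusted p = 0.0405). With Y-linked reads as a covariate Wipi1 did not pass (log2 fold change -0.46, adjusted p = 0.427).

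None of the 5 conjugation genes passed, and their log2 fold changes lay between -0.24 and 0.11, each with a 95% interval within 0.5 of 0. Atg12, the ubiquitin-like protein of this system, had the highest level per kb, 21.9 CPM. It had 61.3, 61.1, 67.9 and 58.4 CPM at P5, against 60.8, 55.5, 62.1 and 55.3 CPM at 4 weeks, and the ages overlapped (log2 fold change 0.09, adjusted p = 0.582). Atg7, the enzyme that activates both Atg12 and the ATG8 proteins, had 70.1, 80.4, 76.0 and 78.5 CPM at P5, against 104, 85.3, 93.2 and 77.6 CPM at 4 weeks. 3 of its 4-week libraries were above all P5 libraries (log2 fold change -0.24, SE 0.10, adjusted p = 0.132). Atg3, which passes ATG8 to the lipid, Atg5, the partner of Atg12, and Atg16l1, which places the pair on the membrane, had log2 fold changes of -0.17, 0.11 and 0.03 (adjusted p = 0.498, 0.576 and 0.923).

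The ATG8 proteins and their cargo receptor Sqstm1 were among the most abundant of the 37 RNAs per kb and did not pass. Gabarapl1 led with 85.2 CPM per kb. It had 157, 146, 132 and 144 CPM at P5, against 163, 116, 182 and 169 CPM at 4 weeks, and its 4-week libraries spread on both sides of P5 (log2 fold change -0.12, 95% interval -0.38 to 0.13). Map1lc3b, the ATG8 protein used as the standard mark of autophagosomes, averaged 135 ± 13.5 CPM at P5 and 151 ± 14.4 CPM at 4 weeks, and Sqstm1 152 ± 19.6 CPM at P5 and 143 ± 16.8 CPM at 4 weeks (± SD, 4 libraries each). Gabarap and Gabarapl2 had log2 fold changes of 0.10 (95% interval -0.14 to 0.35) and 0.11 (-0.21 to 0.43). Reads that map to 1 place only made up 63.3% of Map1lc3b, 21.1% of Gabarapl2 and 0% of Gabarap, which is listed on 2 contigs and was summed, so the split among near-identical copies is uncertain for these 3. As shares of the summed level per kb of 5 ATG8 genes, Gabarapl1 took 30.6% ± 2.23 at P5 and 32.0% ± 2.62 at 4 weeks, Map1lc3b 29.5% ± 1.56 at P5 and 31.9% ± 1.12 at 4 weeks, and Gabarap 27.2% ± 2.09 at P5 and 24.3% ± 1.68 at 4 weeks (± SD, 4 libraries each). Map1lc3a, not among the 37, took 2.39% at both ages.

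**Figure D4:**
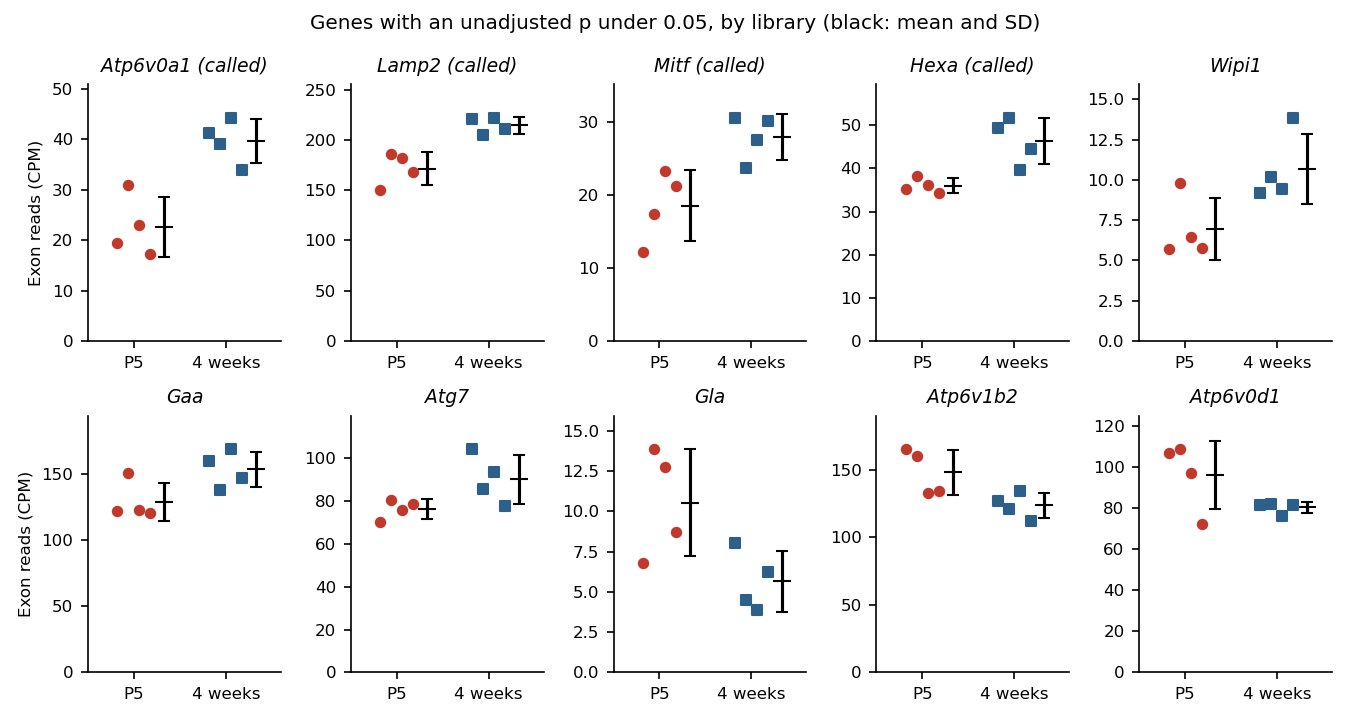
Exon reads (vertical axes from 0, CPM) in each library for the 10 genes with an unadjusted p under 0.05, P5 left and 4 weeks right, with the mean and SD of 4 libraries each in black. Titles marked "called" are the 4 genes with an adjusted p under 0.05, and in these no P5 library reaches the lowest 4-week library.

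Reads over introns can come from RNA that is not yet spliced, and on them 8 of the 37 genes passed. Of these 3 were higher and 5 lower at P5, against 9.01% higher and 8.86% lower of the 13180 genes tested. Atp6v0a1 and Mitf passed on both kinds of reads, and the sign was the same on both for 26 of the 37 genes. Atp6v0a1 had 23.9 ± 8.33 intron CPM at P5 and 49.7 ± 8.91 at 4 weeks (± SD, 4 libraries each), 2.07-fold lower at P5 (log2 fold change -1.05, SE 0.23, adjusted p = 0.00792). Mitf had 180.1 ± 28.3 intron CPM at P5 and 257 ± 26.8 at 4 weeks (± SD, 4 libraries each, log2 fold change -0.51, adjusted p = 0.0131). Wipi1, Atg7 and Tfeb also fell on intron reads, with log2 fold changes of -0.86, -0.39 and -0.62 (adjusted p = 0.0117, 0.0216 and 0.0493), and their exon values had the same sign without passing. The intron values of Tfeb overlapped between the ages. Intron reads were fitted with age alone and all libraries. Whether the intron calls hold with Y-linked reads as a covariate or without P5 replicate 2 was not tested.

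Wipi2 had the smallest intron p-value of the 37. Its intron reads were 131, 157, 143 and 141 CPM in P5 replicates 1 to 4, against 92.3, 85.1, 96.0 and 90.6 CPM at 4 weeks. All P5 libraries were above all 4-week libraries, and the intron reads were 1.57-fold higher at P5 (log2 fold change 0.65, SE 0.09, adjusted p = 5.3e-04), beside 1.07-fold for the exon reads. No other annotated gene lies within the Wipi2 span in GENCODE M21. The intron reads of Sqstm1 (40.9 ± 11.1 CPM at P5, 24.9 ± 3.98 CPM at 4 weeks, ± SD, 4 libraries each, log2 fold change 0.71, adjusted p = 0.0223) and of Atg16l1 (92.9 ± 3.49 CPM at P5, 72.2 ± 4.02 CPM at 4 weeks, ± SD, 4 libraries each, log2 fold change 0.36, adjusted p = 0.0194) were higher too. Exons of Mrnip lie on the opposite strand within Sqstm1, and 2 small RNA genes within Atg16l1. Whether exon and intron changes of a gene differ was not tested.

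**Figure D5:**
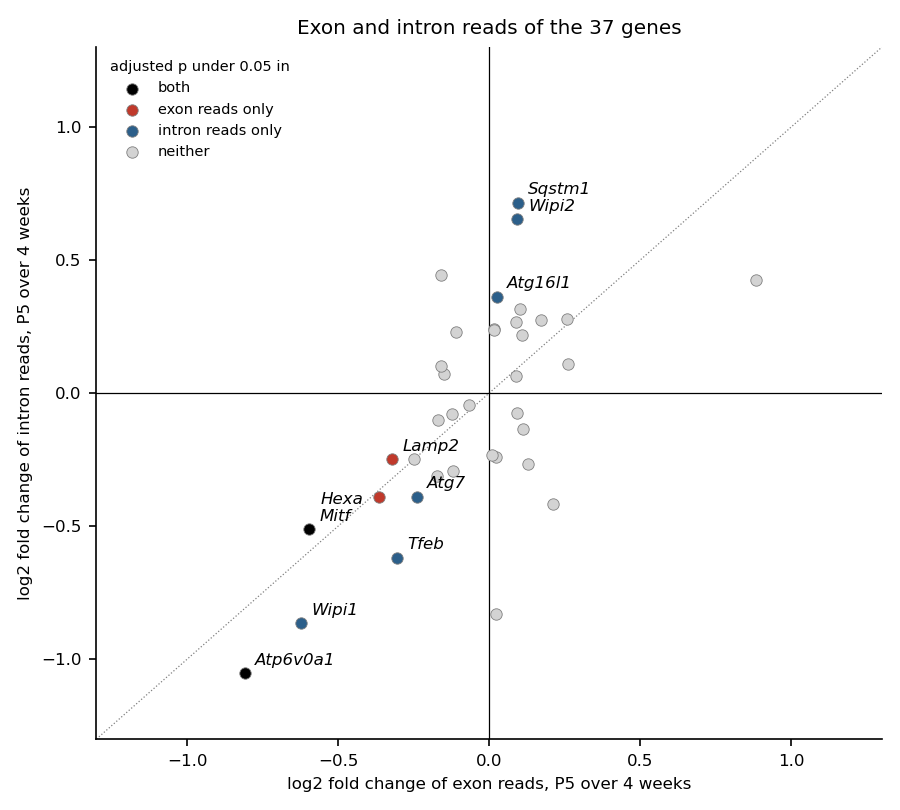
Log2 fold change (P5 over 4 weeks) of exon reads (horizontal axis) and intron reads (vertical axis) for the 37 genes, one point each, coloured by which of the 2 tests it passed. Atp6v0a1 and Mitf lie low on both axes, whereas Wipi2, Sqstm1 and Atg16l1 lie high on the intron axis and within 0.10 of 0 on the exon axis.

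Further genes of the same pathways were set beside the 37. Of 57 other lysosome genes tested, 8 rose and 5 fell, 22.8% against 16.5% of all genes, with a median log2 fold change of 0.04. Man2b1, which trims mannose from glycoproteins, was 1.74-fold higher (306 ± 35.7 CPM at P5, 176 ± 5.61 CPM at 4 weeks, ± SD, 4 libraries each, adjusted p = 3.3e-05), and Cd68, a membrane protein abundant in macrophages, 2.11-fold higher (29.0 ± 6.86 CPM at P5, 13.7 ± 1.90 CPM at 4 weeks, ± SD, 4 libraries each, adjusted p = 0.00141). Laptm4b, a membrane protein, and Ctse, an aspartic protease, were also higher (log2 fold changes of 0.63 and 0.91). All 4 passed without P5 replicate 2, whereas Lgmn, a protease with 5.04, 117, 13.9 and 7.05 CPM at P5 against 3.16, 5.86, 4.04 and 6.37 CPM at 4 weeks, rested on it (adjusted p = 0.0355 with it and 0.169 without). Cd63 and Laptm4a, membrane proteins of late endosomes, fell (log2 fold changes of -0.41 and -0.31, adjusted p = 0.00396 and 0.00922), as did Sort1, a sorting receptor (-0.26, adjusted p = 0.0323). With Y-linked reads in the fit, 5 genes of this list were higher and 1 lower: Man2b1, Cd68 and Ctse passed (adjusted p = 3.9e-05, 0.00816 and 0.0330), as did Cd63 (0.0359), whereas Laptm4b, Laptm4a and Sort1 did not (0.0541, 0.0668 and 0.173).

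Of 32 other core autophagy genes 2 fell and none rose, and of 16 genes of selective autophagy 2 fell and none rose (6.25% and 12.5%, against 8.55% lower and 16.5% in either direction of all genes). Vmp1, an endoplasmic reticulum protein that shapes the forming autophagosome, had 95.2, 129, 87.8 and 103 CPM at P5, against 255, 258, 194 and 266 CPM at 4 weeks. It was 2.35-fold lower at P5 (log2 fold change -1.23, SE 0.13, adjusted p = 2.1e-05), the smallest p of the list, and passed with Y-linked reads as a covariate (adjusted p = 4.1e-04). The hairpin of miR-21a lies within the Vmp1 span on chromosome 11, and exon reads do not separate the 2. Optn, a receptor for damaged mitochondria and bacteria, had 1.91, 3.73, 5.33 and 4.09 CPM at P5, against 12.8, 20.9, 13.6 and 7.90 CPM at 4 weeks, 3.66-fold lower at P5 with no overlap (adjusted p = 0.00226). Nrbf2, a part of the lipid kinase complex, and Park2, the ubiquitin ligase parkin, also fell (log2 fold changes of -0.65 and -0.91, adjusted p = 0.0269 and 0.0427). Of 25 genes of the nutrient kinase complex mTORC1 and its platform on the lysosome, Deptor, an inhibitor of the complex, and Tfec fell (Deptor log2 fold change -0.36, adjusted p = 0.0387) and none rose, 8% against the same shares. With Y-linked reads in the fit, Optn and Tfec also passed (adjusted p = 0.0255 and 0.0464), whereas Nrbf2, Park2 and Deptor did not (0.125, 0.257 and 0.0680). Nrbf2 and Park2 did not pass without P5 replicate 2 either (0.0616 and 0.0799). Median log2 fold changes of these 3 lists were -0.07, -0.09 and -0.04.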

How the data were processed

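The deposited tables give raw counts of reads over exons, introns and whole genes for each gene and library, per the file headers, and an exon length per gene. Libraries were made from 100 sorted cells with Nextera XT, per the labels' protocols, which does not mark strand, and they carry no molecular identifiers, so errors from counting do not cover amplification. Per the submitters' processing notes, reads were placed on mm10. The aligner, the counter and the annotation were not given in the sources used here.

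Total exon reads were used, and 969 genes listed on several contigs were summed. The test was that of edgeR 4.0.16, run in R 4.3.3 (filterByExpr, TMM, quasi-likelihood, age alone as the term), with Benjamini-Hochberg adjustment over all 12235 genes kept and a threshold of 0.05. CPM are normalised exon reads. Standard errors were derived from the F statistic, and 95% intervals are unadjusted. Intron reads were fitted apart, with their own scaling. Tables and figures used Python 3.11.15, pandas 2.3.3 and matplotlib 3.10.9. Alternatives were a block for the replicate number, leaving out each library, other filters and size factors, DESeq2 1.42.0, limma-voom (limma 3.58.1), uniquely mapped reads, intron reads with and without exon reads, Y-linked reads (present where a library had over 100) as a covariate, and only libraries with such reads. The test was tried on simulated counts.

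The 37 genes and all gene lists were chosen with earlier results of these data known. All 37 are named. Values in every library are given for those past the threshold, for those with an unadjusted p under 0.05 and for the highest per kb in each role, and further such values were added after they were seen. Of each further list, called genes were named, at most 4 in each direction by p-value. One gene that this rule names is not reported here. Lgmn was named after its values were seen, as were Ctsb, Ctsd and Wipi2 by library. Promoters and gene positions are RefSeq's on GRCm38.p6, and gene overlaps are from GENCODE M21. The authors' own comparison of the ages was not used, and samples cultured for 1 day were not analysed here.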

Additional observations from a re-analysis of the deposited data

Results flagged for a closer look

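Of 94 groups of 4 libraries screened (each of the 37 genes and each of 10 marker sums at each age), 7 held a library whose gap to its nearest neighbour, divided by the range of the group, was above Dixon's 95% critical value. Chance alone gives this in about 5% of groups, and the causes were not tested. Among the 37 genes, Lamp1 was high in 4-week replicate 2 (161.6 CPM, next 143 CPM), Gaa was high in P5 replicate 2 (150.5 CPM, next 123 CPM), and Atp6v0d1 was low in 4-week replicate 3 (76.4 CPM, next 81.5 CPM). Summed macrophage and monocyte markers were high in P5 replicate 2 (476 CPM, next 204 CPM). Summed neutrophil markers were low in 4-week replicate 2 (28.3 CPM, next 35.6 CPM), summed osteoclast markers low in 4-week replicate 4 (3.60 CPM, next 9.25 CPM), and summed erythroid markers high in 4-week replicate 3 (79.6 CPM, next 18.7 CPM).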

How the results depend on the processing

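Over 19 alternatives no result reversed. Of 702 log2 fold changes (each of the 37 genes under each alternative that could be fitted), 617 kept their direction and their side of the threshold, 27 lost the call, 17 gained one and 41 changed sign between values that did not pass. The count of the 37 genes lower at P5, 4, became 1 with the replicate block, 0 with Y-linked reads as a covariate and 0 in the libraries with such reads, and 2 to 6 with 1 library left out. The count higher, 0, became 1 with DESeq2, 1 on exon plus intron reads, 3 on intron reads, and 0 to 1 with 1 library left out. Over all genes, those higher numbered 577 with the replicate block, 628 with the covariate and 619 in the libraries with Y-linked reads, and those lower 608 and 638 under these last 2. Atp6v0a1 kept its call in 17 alternatives, Lamp2 in 15, Mitf in 10 and Hexa in 7. Libraries with the same replicate number did not deviate together (correlations of -0.031, -0.236, -0.095 and -0.052). This check showed no pairing by number, but it could not exclude a weak one. Under the replicate block only Atp6v0a1 passed (adjusted p = 0.0119).

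Changes under 1.41-fold in genes with few reads, such as Gla, Wipi1 and Tfeb, are beyond the precision of these libraries. With P5 replicates 1 and 3 alone lacking Y-linked reads, sex can be told from age only by the covariate and by the libraries that share it. Both of these rest on P5 replicates 2 and 4 for that age.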
